A study of Homo sapiens with 9 samples.

Results

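UPCI-SCC-040 is an established line of tongue squamous carcinoma cells. Its untreated state was described from 3 libraries of total RNA, which were chosen by their control titles and made up 3 of the 9 libraries in the series. Control 1 came from passage 12, control 2 from passage 13 and control 3 from passage 8. All 3 were labelled as 0 h without TGF-β1, and the line was grown in minimal essential medium with non-essential amino acids and heat-inactivated fetal bovine serum. The other 6 libraries were exposed to 5 ng/ml TGF-β1 for 48 h or 72 h in serum-free medium and were not analysed here. The labels do not say whether the control cells were kept without serum before RNA extraction, and nothing beyond the passage marks the 3 libraries as separate cultures. The line is a single tumour line, so the spread between libraries covers passages of that line and not other tumours.

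The stratified squamous epithelium of the tongue is renewed by basal cells, which sit on the basement membrane and divide. As cells leave the basal layer they exchange the basal keratin pair KRT5 and KRT14 for other keratins and switch on genes of the cornified or mucosal surface. Squamous carcinomas keep parts of this programme. The growth factor receptor EGFR, cyclin D1 and the transcription factor ΔNp63, a product of TP63, are among the best known regulators of such tumours.

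The deposited read counts totalled 16142262, 17865682 and 13288016 in controls 1, 2 and 3. Levels are given on 2 scales. CPM relate a gene's count to the library total, scaled to a total of 1000000. TPM first divide each count by the gene's exon length and then scale in the same way, and only TPM are used to compare one gene with another. Values follow the order control 1, 2 and 3, and means are given ± SD (n = 3 libraries). A gene was taken as expressed at 1 CPM or more in all 3 libraries. Of 19791 protein-coding genes, 11492 (58.1%) met this threshold and 3961 (20.0%) had no count in any control, and these shares are the background for the gene groups below. Over the pooled 47295960 counts, a count of 0 allows a level of up to 0.0634 CPM, counting error alone considered. The median protein-coding gene stood at 4.25 TPM and the median expressed one at 23.8 TPM, with 130 TPM at the 90th percentile of expressed genes and 779 TPM at the 99th.

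All 5 genes commonly used to recognise squamous carcinoma cells had a mean above the 90th percentile of expressed genes. KRT5 (ENSG00000186081, chromosome 12, 52514575 to 52520687, minus strand), the basal type II keratin, was measured at 6605, 3912 and 5797 TPM. Its type I partner KRT14 (ENSG00000186847, chromosome 17, 41582279 to 41586921, minus strand) stood at 7689, 3509 and 5832 TPM. Both keratins were lowest in control 2 and highest in control 1, and the KRT14 to KRT5 ratio lay on both sides of 1, at 1.16, 0.897 and 1.01. The order of the pair also depended on the gene model, with a mean ratio of 0.845 when the longest transcript set the length. TP63, the transcription factor of the basal layer, had 218, 199 and 210.3 TPM. CDH1, the epithelial cadherin, had 211, 137 and 165 TPM, and EGFR had 155, 181 and 159.96 TPM. The TP63 values differed little between libraries, whereas CDH1 was again lowest in control 2 and highest in control 1.

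The wider set of basal keratinocyte genes was complete, with 20 of 20 members expressed and a median of 687 TPM. Hemidesmosomes, the plaques that fix basal cells to the basement membrane, were represented by COL17A1 at 2338, 1445 and 2178 TPM, ITGA6 at 1066, 711 and 919 TPM, ITGB4 at 865, 681 and 848 TPM and PLEC at 642, 594 and 645 TPM. Both integrin chains and COL17A1 were lowest in control 2. LAMB3 and LAMA3, which encode chains of a laminin that these plaques bind, had 1142 ± 58.2 TPM and 294 ± 46.9 TPM. LAMB3 exceeded LAMA3 by 3.23, 4.7 and 3.97 times within the same library. S100A2, a calcium-binding protein of basal cells, reached 4833 ± 914 TPM, and SFN, the epithelial 14-3-3 protein and an inhibitor of the cell cycle, 2966 ± 355 TPM. The lowest members were KRT15 at 10.02 ± 1.8 TPM and TRIM29 at 22 ± 4.83 TPM. KRT15, a keratin of resting basal cells, was thus expressed far below KRT5 and KRT14.

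**Figure D1:**
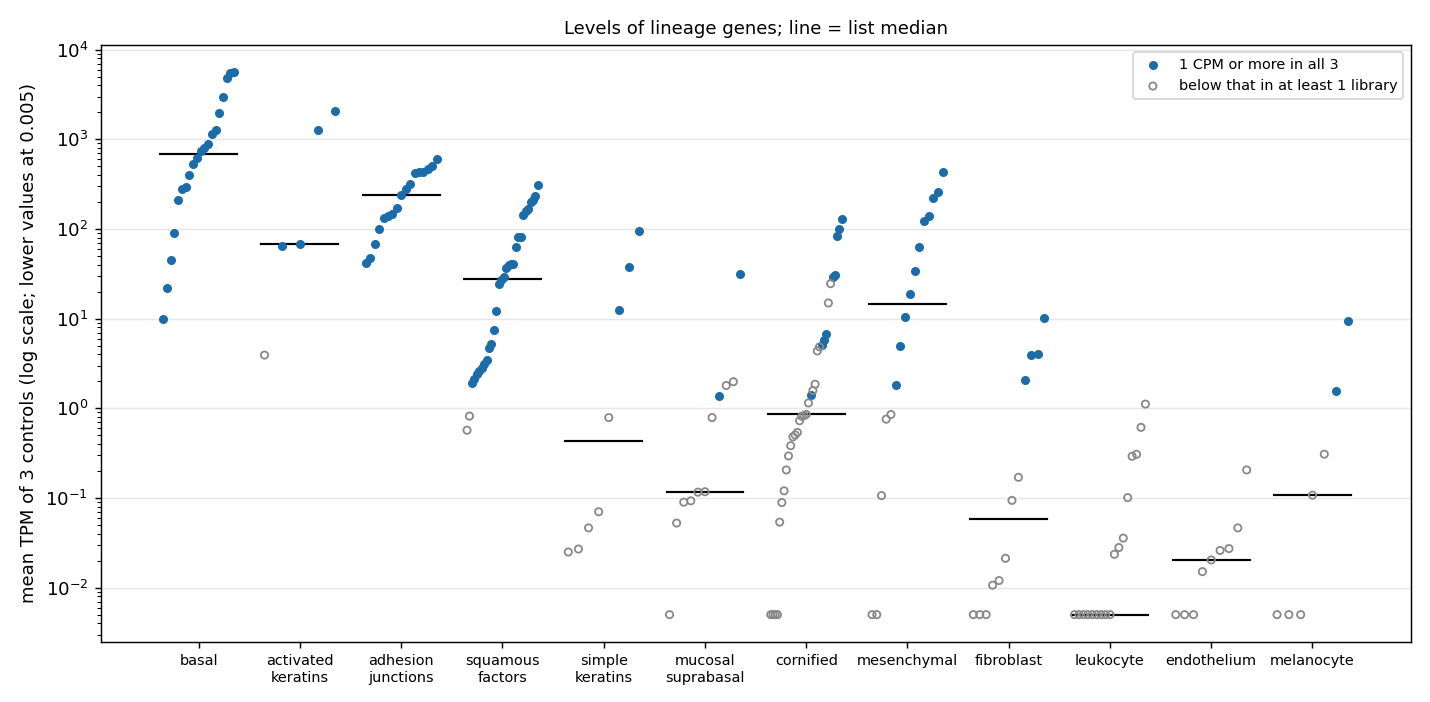
Mean TPM over the 3 controls (log axis) for each gene of 12 marker lists, with 1 point per gene and a line at the list median. Basal, adhesion and squamous factor genes lie mostly above 10 TPM, whereas all 17 leukocyte and all 9 endothelial markers lie below the expression threshold (open points).

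Keratins of activated and wounded epithelium accompanied the basal pair. KRT6A was measured at 3217, 1037 and 2028 TPM and KRT17 at 1767, 901 and 1169 TPM. KRT16, the usual partner of KRT6A, was far lower at 148, 20.4 and 36.7 TPM, and KRT6B had 147, 8.69 and 37.2 TPM. Every one of these 4 keratins was highest in control 1 and lowest in control 2, and KRT6B and KRT16 fell among the 10 genes with the widest spread between libraries. KRT6A, KRT6B and KRT6C are near-identical copies, and 36.3% to 53.3% of their transcript windows of 50 bases recur in other genes, so reads may be split among them. In RNA of pooled cells, fewer cells with a keratin and less of it per cell cannot be told apart. Of 8 keratins listed for simple epithelia 3 were expressed, with KRT18 at 70.5, 129 and 85.2 TPM and KRT8 at 4.77, 18 and 14.6 TPM. The third, KRT80, had 31, 50.4 and 30.5 TPM, but it is not confined to simple epithelia. KRT8 and KRT18 form a pair in glandular cells, yet KRT18 exceeded KRT8 by 14.8, 7.16 and 5.85 times, or 4.88 times with the longest transcript. KRT18, KRT8 and KRT80 were highest in control 2, the library in which the activated keratins were lowest. KRT18 and KRT8 share 34.1% and 21.2% of their windows with other genes, as KRT14 does 24.6% and KRT16 20.3%, so their levels are uncertain to that extent. KRT19 had a single count in the 3 libraries together and KRT7 stood at 0.788 ± 0.46 TPM. In all, 13 of 55 keratin genes were expressed, and the 55 together took 1.77%, 0.938% and 1.42% of all counts.

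Cell adhesion genes of squamous epithelium were expressed for 17 of 17 members with a median of 242 TPM. The desmosomal cadherins DSC3 and DSG3 of the lower layers exceeded DSG1 of the upper layers. DSC3 stood at 658, 355 and 401 TPM and DSG3, the pemphigus vulgaris antigen, at 591, 333 and 390.5 TPM, both highest in control 1. DSG1, its counterpart in the upper layers, gave 16.9, 1.8 and 1.61 TPM, so that the DSG3 to DSG1 ratio was 34.9, 185 and 242. The plaque proteins DSP (505 ± 116 TPM), PKP3 (419 ± 57.8 TPM) and JUP (322 ± 51.9 TPM) and the desmosome-associated membrane protein PERP (609.9 ± 148 TPM) were all abundant. P-cadherin, CDH3, a cadherin of basal cells, exceeded CDH1 in every library by 1.45, 1.79 and 1.75 times. N-cadherin, CDH2, stood at 6.2, 16.9 and 7.99 TPM, and CDH1 exceeded it 34, 8.12 and 20.6 times. Control 2, which had the least CDH1, had the most CDH2.

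Transcription factors of the squamous lineage were expressed for 28 of 30 genes. Among the highest were KLF4 (311 ± 57.3 TPM), KLF5 (236 ± 54.2 TPM), TP63 (209 ± 9.44 TPM), BNC1 (200.5 ± 13.1 TPM) and SOX15 (159 ± 21.5 TPM). KLF4, a factor of differentiating layers, and KLF5, a factor of dividing ones, changed places between libraries, with a KLF4 to KLF5 ratio of 0.831, 1.64 and 1.7. SOX2, which lies with TP63 on the arm 3q that squamous tumours often gain, was only 5.37, 3.08 and 2.04 TPM, and TP63 exceeded it 40.7, 64.7 and 103 times. GRHL3 (0.819 ± 0.269 TPM) and ELF3 (0.57 ± 0.417 TPM), factors of barrier formation, were the 2 members below the threshold. ZNF750, a TP63 target that drives differentiation, had 4.92, 2.09 and 1.52 TPM.

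Genes of the upper layers were mostly low or silent. Of 33 cornified differentiation genes, 9 were expressed, 20 had counts but missed the threshold, and 4, namely KRT2, LOR, LCE3E and DSG4, had no count. CALML5, a calmodulin-like protein of differentiating keratinocytes, led this list at 129.6 ± 5.13 TPM, with CSTA at 101 ± 15.9 TPM and SPRR1B at 177, 22.2 and 49.3 TPM. The envelope protein involucrin, IVL, gave 3.74, 0.527 and 0.477 TPM, the filaggrin gene FLG 1.42 ± 0.419 TPM and the suprabasal keratin KRT1 3.58, 1.06 and 0.929 TPM. Another suprabasal keratin, KRT10, went the other way and was expressed at 29.9, 26.4 and 36.7 TPM. S100A9 (58.1, 10.8 and 4.9 TPM) was below the threshold in control 3 and SPRR1A (33, 1.4 and 10.5 TPM) in controls 2 and 3. Control 1 was the highest library for IVL, FLG, KRT1, S100A9 and SPRR1A, and its S100A9 value was 5.37 times that of the next library. The mucosal programme of the tongue surface was lower still. KRT13 had 3.81, 1.23 and 0.353 TPM and KRT4 1.05, 1.08 and 0.233 TPM, the keratin pair of non-cornified oral epithelium, and CRNN, a surface protein of the same epithelium, had no count. EMP1, a membrane protein of wider expression, led that list at 31.3 ± 1.98 TPM and TMPRSS11D was the only other of its 11 members to be expressed.

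Among markers of other cell types that a tongue tumour can hold, those of leukocytes, endothelium and salivary gland were all below the threshold, whereas a few of fibroblasts, melanocytes, nerve, taste cells and muscle were expressed. None of 17 leukocyte markers was expressed, and their summed level was 1.83, 2.74 and 2.98 TPM. PTPRC, the pan-leukocyte marker CD45, had 3 counts in the 3 libraries together, and CD3D, CD3E, CD4 and MS4A1 had none. The 9 endothelial markers summed to 0.473, 0.150 and 0.400 TPM with KDR, TIE1 and EMCN at 0. The 13 salivary gland markers summed to 0.116 to 0.156 TPM, and 10 of them had no count. Only 6 of those 10 were free of marked sequence sharing or exon overlap, so reads of the others may have been dropped. The 12 fibroblast markers summed to 23.5, 16.7 and 21.2 TPM. Of these 4 were expressed, namely FBLN1 (10.1 ± 1.11 TPM), MFAP5 (3.99 ± 1.78 TPM), COL1A1 (3.98 ± 0.549 TPM) and FAP (2.1 ± 0.714 TPM), while DCN, LUM and PDGFRA had no count and COL1A2 stood at 0.17 ± 0.121 TPM. The melanocyte factor MITF was expressed at 9.43 ± 0.651 TPM and PMEL at 1.57 ± 0.392 TPM, with TYR, DCT and SOX10 at 0. A neurofilament gene, NEFL, was expressed at 47, 19.9 and 29.9 TPM with S100B and SNAP25 at 0, and the taste receptor subunit gene TAS1R3 at 4.15 ± 0.666 TPM with GNAT3 at 0. In the muscle list TTN, among the longest genes known, passed the CPM threshold at only 0.601 ± 0.105 TPM, and DES, MYOD1 and MYOG had no count.

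Of 16 genes linked to a mesenchymal state 11 were expressed, against 58.1% of all protein-coding genes. VIM, the intermediate filament of mesenchymal cells, was steady at 146, 139 and 139 TPM, which is 0.0221, 0.0356 and 0.0240 of the KRT5 level. TGFBI, a matrix protein induced by TGF-β, stood at 475, 486 and 342 TPM and TNC, tenascin C, at 194, 69.2 and 109 TPM. Fibronectin, FN1, was 1.86, 2.04 and 11.1 TPM and was high in control 3 alone, where its level exceeded that of the next library 5.46 times. POSTN and LUM had no count, and ACTA2 was at 0.854 ± 0.238 TPM. Among 12 transcription factors of epithelial to mesenchymal transition, 7 were expressed, a share close to that of all protein-coding genes. SNAI2, which is also a factor of basal keratinocytes, led with 226, 192 and 229.9 TPM, whereas its relative SNAI1 had only 2, 6 and 5 counts and stood at 0.564 ± 0.269 TPM. FOXC1 (35 ± 2.26 TPM), SOX4 (13.3 ± 3.12 TPM), TWIST2 (6.4 ± 2.19 TPM) and TWIST1 (5.84 ± 1.08 TPM) were lower. ZEB1 stood at 0.206 ± 0.132 TPM, ZEB2 at 0.0108 ± 0.00943 TPM, and PRRX1 had no count.

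The most abundant RNA per exon length was RN7SL2, the RNA of the signal recognition particle, with 130709, 136834 and 137896 TPM. It alone took 13.5% of all TPM and 1.18% of counts, and 81.8% of its windows recur in the near-identical copies of this gene. Next came replication-dependent histone genes, which supply 14 of the 25 highest genes outside the mitochondrial chromosome. HIST1H1C, a linker histone, led them with 6788, 8488 and 7390.4 TPM. The 71 clustered histone genes, 57 of them expressed, together made up 2.09% of counts and 11.6% of TPM. Messages of such genes typically, but not always, end in a stem loop and not in a poly(A) tail. The labels name a kit without saying whether poly(A) RNA was selected or ribosomal RNA removed. The 57 annotated nuclear ribosomal RNA genes, 55 of them without a count, held under 0.001% of counts, and mitochondrial ribosomal RNA 0.0160%. The handling of multiply aligned reads is not given, so these shares do not tell how the libraries were prepared.

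**Figure D2:**
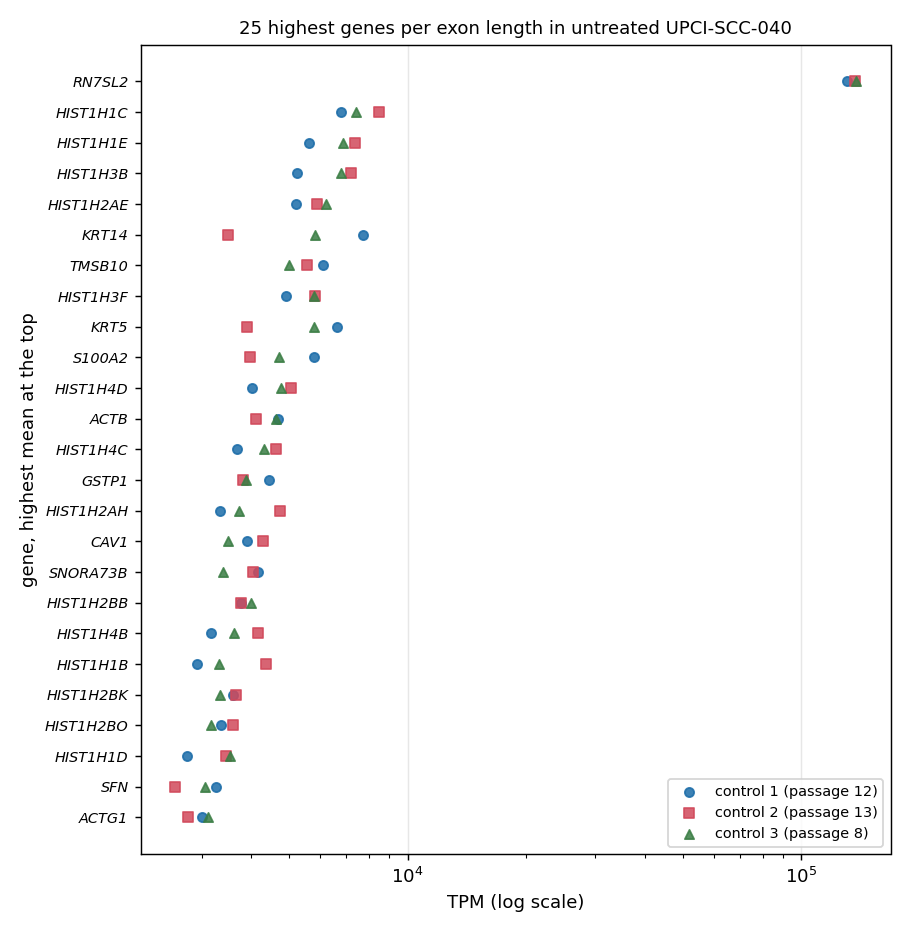
TPM (log axis) of the 25 highest genes outside the mitochondrial chromosome, with 1 symbol per control library. RN7SL2 stands apart near 135146 TPM, the other 24 genes lie between 2574 and 8488 TPM, 14 of them histone genes, and KRT14 and KRT5 show the widest gaps between libraries.

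Outside the histone genes the highest protein-coding genes were KRT14, TMSB10, KRT5, S100A2, ACTB, GSTP1, CAV1, SFN, ACTG1 and CCND1. TMSB10, an actin-binding thymosin, had 6108, 5571 and 4998 TPM and ACTB, cytoplasmic actin, 4702, 4129 and 4628 TPM. GSTP1, the glutathione transferase of epithelial cells, stood at 4443, 3829.9 and 3892 TPM and CAV1, the coat protein of caveolae, at 3920.2, 4299.7 and 3510.3 TPM. Of neighbours in this order, ACTB exceeded GSTP1, CAV1 exceeded SFN and ACTG1 exceeded CCND1 in all 3 libraries, and no other listed pair kept its order in all 3. Among the 25 highest genes of any type, 5 exceeded the next one in all 3 libraries. By CPM, which favours long messages, the order was led by RN7SL2, KRT5, TLN1, CAV1, ACTB, FLNA and COL17A1, and KRT5 alone held 8073, 4975 and 7289 CPM. TLN1 and FLNA encode large proteins that tie actin to integrins. The 10 most abundant genes of each library held 5.25 ± 0.293% of its counts, the top 100 held 16.9 ± 0.643% and the top 1000 held 49.2 ± 0.363%. The 58 protein-coding genes at 1000 CPM or more took 12.1% of protein-coding counts, and the 2407 genes at 100 to 1000 CPM took 57.9%.

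The mitochondrial chromosome held 0.137%, 0.109% and 0.150% of counts. Of its 13 protein-coding genes 12 were expressed. MT-CO3, MT-CO1 and MT-CO2, the core subunits of cytochrome c oxidase, led with 1826, 1277 and 1983 TPM, 879, 569 and 885 TPM and 691, 434 and 679.8 TPM, and all 3 were lowest in control 2. MT-ATP8 missed the threshold in control 2 at 0.336 CPM. Ribosomal protein genes held 2.62 ± 0.238% of counts with 82 of 84 expressed, and were highest in control 2. Shared transcript windows were not checked for mitochondrial genes, nor for all ribosomal protein genes. The handling of multiply aligned reads is not given, so the shares of both groups may be too low.

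Of the EGFR family, whose 4 receptors pair with one another, EGFR (ENSG00000146648, chromosome 7, 55019021 to 55211628, plus strand) was the highest receptor at 165 ± 13.8 TPM. It exceeded ERBB2 by 6.02, 6.85 and 6.2 times and ERBB3 by 10.9, 12.5 and 12.3 times within each library. With the longest transcript the ratio to ERBB2 fell to 3.87. ERBB2 was at 25.8, 26.4 and 25.8 TPM, ERBB3 at 14.2, 14.5 and 13 TPM, and ERBB4 had 0 to 0.0395 TPM. RNA of ligands that bind EGFR was found in the same libraries. Amphiregulin, AREG, led with 668, 455 and 648 TPM, then TGFA (97 ± 8.34 TPM), EREG (71.7 ± 12.7 TPM) and HBEGF (25.2 ± 5.32 TPM), while EGF itself stood at 0.153 ± 0.0413 TPM and BTC at 0.319 ± 0.12 TPM. NRG1, the ligand of ERBB3 and ERBB4, was at 115 ± 7.25 TPM and NRG3 had no count. EGF had 13 counts in the 3 libraries together.

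Among 36 other receptor tyrosine kinases 19 were expressed, a share below the 58.1% of all protein-coding genes. AXL, a receptor linked to invasive cells, had 167, 379 and 226 TPM and was highest in control 2. MET, the receptor of hepatocyte growth factor, was steadier at 265, 262 and 242 TPM and exceeded EGFR 1.71, 1.45 and 1.51 times. EPHA2 (165 ± 25.2 TPM), PTK7 (97.3 ± 3.08 TPM) and DDR1 (82.5 ± 5.3 TPM) followed. FGFR2 (44 ± 2.32 TPM) and FGFR3 (39.97 ± 3.26 TPM) overlapped in level, and FGFR1, the mesenchymal member of that family, stood at 0.724 ± 0.167 TPM. IGF1R was at 31 ± 3.61 TPM and INSR at 9.98 ± 0.425 TPM. KDR, PDGFRA, NTRK3 and FLT3 had no count.

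Of 41 oncogenes on the list, 40 were expressed, against 58.1% of all protein-coding genes, and MYCN had no count. Cyclin D1, CCND1 (ENSG00000110092, chromosome 11, 69641087 to 69654474, plus strand), which starts the G1 phase by activating CDK4 and CDK6, was the highest with 2401, 2169.7 and 2737 TPM. It was the 32nd highest gene per exon length outside the mitochondrial chromosome. The other D cyclins were far lower, CCND3 at 31.8, 35.1 and 37.6 TPM and CCND2 at 3.37, 10.5 and 5.17 TPM. CCND1 exceeded CCND3 by 75.4, 61.9 and 72.7 times, or 32.3 times with the longest transcript. CDK6 (251 ± 25.2 TPM) exceeded CDK4 (99.7 ± 7.07 TPM) in all 3 libraries. Other high members were the survival factor MCL1 (543 ± 89.98 TPM), the chromatin protein HMGA1 (376 ± 96.3 TPM), the AP-1 subunit FOSL1 (306 ± 18.1 TPM), the mitotic kinase AURKA (295 ± 25.2 TPM), BIRC5 (281 ± 8.5 TPM) and MYC (247 ± 30.5 TPM). E2F1, released when the retinoblastoma protein is phosphorylated, stood at 199 ± 8.77 TPM, and cyclin E genes were at 22.8 ± 2.34 TPM for CCNE2 and 9.68 ± 1.51 TPM for CCNE1. TERT, the telomerase subunit, was expressed at 8.84, 12.9 and 11.8 TPM. The effectors of the Hippo pathway YAP1 (52 ± 4.93 TPM) and WWTR1 (37.1 ± 2.12 TPM) were both expressed, in an order that turned with the longest transcript. BCL2 stood at 1.6 ± 0.116 TPM, below BCL2L1 at 52.8 ± 3.93 TPM. CDK4, CCNE2 and BCL2L1 share 46.3%, 47.7% and 35% of their windows with other genes, so their levels may be misassigned.

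**Figure D3:**
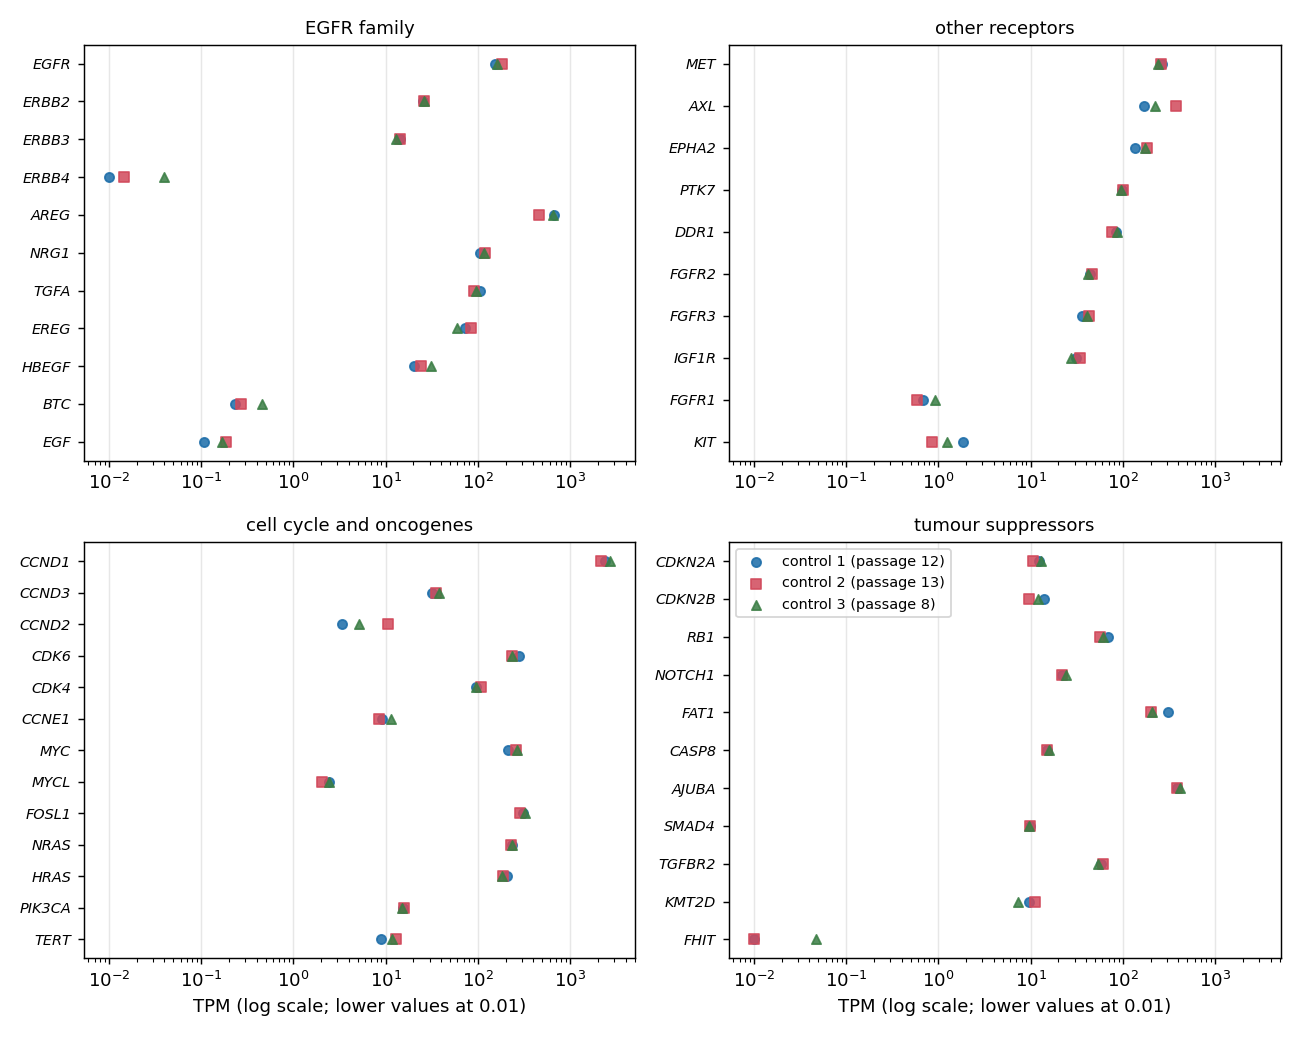
TPM (log axis, values under 0.01 drawn at 0.01) of receptors, ligands, oncogenes and tumour suppressors, with 1 symbol per control library. EGFR, AREG and CCND1 head their families in all 3 libraries, and CCND2 and AXL have their highest value in control 2.

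The RAS and PI3 kinase pathway, which passes receptor signals on, had 21 of 23 members expressed. The GTPase genes NRAS and HRAS had 237, 231 and 233 TPM and 209.8, 187 and 184 TPM. The kinase gene ARAF (58 ± 4.13 TPM) exceeded BRAF (4.91 ± 0.274 TPM). PIK3CA, the catalytic subunit most often mutated in these tumours, had 15.4 ± 0.406 TPM with 39.5% of its windows shared, and PIK3CD, better known from leukocytes, 33.4 ± 4.17 TPM. AKT1 (60.5 ± 2.62 TPM) led the AKT kinases. PIK3R2 was listed at 0.016 ± 0.0278 TPM, but 87.2% of its exon bases are overlapped by another gene's exons, so its reads may have been lost in counting. PIK3CG, the leukocyte isoform, had no count.

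Tumour suppressors were expressed for 45 of 50 genes. AJUBA (397 ± 16.7 TPM) and the giant cadherins FAT1 (307, 204 and 208 TPM) and FAT2 (111 ± 26.4 TPM) led the list. The cell cycle inhibitor CDKN1A had 109, 93.1 and 108 TPM. RB1 stood at 62.2 ± 5.61 TPM, NOTCH1 at 22.6 ± 1.43 TPM, CASP8 at 15.2 ± 0.444 TPM and SMAD4 at 9.78 ± 0.17 TPM. CDKN2A, the 9p21 gene for an inhibitor of CDK4 and CDK6 that is often lost in oral carcinoma, was expressed at 12.4, 10.6 and 13.1 TPM, and its neighbour CDKN2B at 14, 9.64 and 12.2 TPM. With the longest transcript CDKN2A came to 31.3 TPM and CASP8 to 29.1 TPM. MTAP, next to CDKN2A, had 16.3 ± 0.613 TPM. The 5 suppressors below the threshold were DAPK1 (0.541 ± 0.155 TPM), FAT4 (0.128 ± 0.0407 TPM), FHIT (0.0157 ± 0.0273 TPM), and MGMT and WIF1 with no count. MGMT encodes the enzyme that removes alkyl groups from guanine, and WIF1 an inhibitor of Wnt ligands. A level of RNA says nothing of mutations in these genes.

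Neighbours of CCND1 in band 11q13, a region that head and neck tumours often amplify, were described next. CTTN, the actin regulator cortactin, had 1384, 1221 and 1430.3 TPM, the chloride channel gene ANO1 519.8, 577 and 612 TPM, PPFIA1 229, 228 and 222 TPM and the death adaptor FADD 159, 145 and 186 TPM. For FADD, 54.9% of exon bases are overlapped by another gene. Of the 12 genes listed for that band 9 were expressed, against 58.1% of all protein-coding genes, with a median of 82.9 TPM. The 3 fibroblast growth factor genes there, FGF3, FGF4 and FGF19, stayed under 1 TPM. Copy number was not measured. In the region 3q26 to 3q28, 12 of 13 genes were expressed, led by ECT2 (231 ± 18.5 TPM), TP63, TBL1XR1 (130.4 ± 7.98 TPM) and ACTL6A (116 ± 3.73 TPM).

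RNA of most listed parts of TGF-β signalling was found in these controls, to which no TGF-β1 was added. Protein was not measured. Of 36 ligands, receptors and SMADs listed, 30 were expressed, against 58.1% of all protein-coding genes. The 30 include TGFA, which in spite of its name is a ligand of EGFR. Receptor TGFBR1 had 95.7, 78.4 and 81.3 TPM and TGFBR2 58.2, 61.3 and 54.4 TPM, and TGFBR1 exceeded TGFBR2 1.64, 1.28 and 1.49 times. Ligand TGFB1 stood at 32, 28.5 and 40.6 TPM, TGFB2 at 9.48 ± 1.21 TPM and TGFB3 at 2.1 ± 0.638 TPM. SMAD2 (43.2 ± 4.04 TPM) and SMAD3 (28.6 ± 1.9 TPM), which receptors phosphorylate, were joined by the inhibitor SMAD7 (55.5 ± 7.78 TPM). Highest of all was FST, follistatin, the antagonist of activin, with 298, 230.5 and 282 TPM, and INHBA, the activin subunit, had 109, 91.7 and 133 TPM. The endothelial receptor ACVRL1 had no count.

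Of 17 Notch pathway genes 11 were expressed, against 58.1% of all protein-coding genes, and 3 ligands exceeded the receptors. DLL1 (190.2 ± 21 TPM), JAG1 (127 ± 16.9 TPM) and JAG2 (121 ± 5.05 TPM) stood above NOTCH1 (22.6 ± 1.43 TPM) and NOTCH2 (16.1 ± 1.73 TPM), and NOTCH3 was at 0.89 ± 0.345 TPM. Within each library JAG1 was 5.89, 5.09 and 5.94 times NOTCH1. HES1, a target of Notch, had 113 ± 10.3 TPM, while HEY2 and HEYL had no count. In the Wnt list 23 of 36 genes were expressed, a share close to that of all protein-coding genes. FZD6 (137 ± 12.3 TPM) and FZD7 (69.9 ± 3.14 TPM) led the receptors and WNT10A (31.1 ± 2.1 TPM) and WNT7A (24.8 ± 1.49 TPM) the ligands. DKK1, a secreted Wnt inhibitor that was not on the list, was among the 25 highest non-histone genes with 1275, 1921 and 1580.1 TPM. AXIN2 and LGR5, targets of canonical Wnt signalling, had 1 count each in the 3 libraries together.

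Division genes were high, with all 20 expressed and a median of 313 TPM. PCNA, the clamp of DNA polymerase, had 882, 856 and 798 TPM, CDK1 707, 599.7 and 649.8 TPM and MKI67, the antigen Ki-67, 142 ± 19.5 TPM. The highest library exceeded the lowest 1.10 times for PCNA, 1.18 times for CDK1 and 1.31 times for MKI67. Some genes of glucose use and redox defence were also high, with ENO1 at 1940.2 ± 136 TPM, PKM at 1202 ± 42.3 TPM, PRDX1 at 1207 ± 89.2 TPM, TXN at 1183 ± 111 TPM and NQO1 at 391, 668 and 549.7 TPM. The 29 listed genes of xenobiotic metabolism and redox defence had a median of only 31.9 TPM, against 23.8 TPM for expressed protein-coding genes. ENO1, PKM and LDHA came out at 3104, 2639 and 1242 TPM with the longest transcript.

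Secreted signals were led by IL1A (296, 470.2 and 446 TPM), the parathyroid hormone-like gene PTHLH (202 ± 28.6 TPM), VEGFC (130.1 ± 21.5 TPM) and IL1B (100.3 ± 4.67 TPM). IL6 (42.7, 59 and 31.3 TPM) and CXCL8 (12.5, 13.5 and 5.65 TPM) were lower, and CXCL5, CCL2 and IL33 had no count. MIF was listed at 2.76 ± 0.574 TPM, with 61.9% of its exon bases overlapped by another gene. Proteases were led by the kallikrein KLK5 (1337, 886 and 1013 TPM), followed by PLAU, urokinase (361, 451 and 456 TPM). MMP14 (154 ± 14.5 TPM) and MMP13 (62.1 ± 11.5 TPM) exceeded MMP9 (7.34 ± 3.72 TPM) and MMP2 (5.58 ± 0.667 TPM), and MMP7 and MMP12 stayed under 0.2 TPM. Of 26 integrin genes 13 were expressed, a share below the 58.1% of all protein-coding genes. They were headed by ITGA6, ITGB4, ITGB1 (538 ± 106 TPM) and ITGA3 (396 ± 36.6 TPM). ITGB6, the partner of ITGAV that activates latent TGF-β, had 47.2, 54.4 and 67.6 TPM.

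Genes of antigen presentation were expressed in class I and silent in class II. HLA-B had 864, 257 and 673 TPM and B2M 624, 371 and 562 TPM. HLA-DRA, HLA-DRB1 and HLA-DPA1 had no count, and CIITA, their activator, was at 0.0883 ± 0.046 TPM. HLA-B, HLA-C and B2M were all highest in control 1 and lowest in control 2. The interferon-induced genes IFI6 and IFI27, among the 10 most variable, ran in the same order at 140.4, 12.2 and 67.5 CPM and 499.9, 53.1 and 247 CPM. Other genes that interferon induces did not, since DDX58 (72.6, 102 and 135 TPM) and IFIH1 (42, 43.1 and 49.6 TPM) were lowest in control 1 and highest in control 3. CD274, the ligand PD-L1, was expressed at 2.33, 4.23 and 4.0 TPM. HLA-B is polymorphic and shares 21.7% of its transcript windows with other genes, so its level may be misassigned.

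HOX genes, which carry positional identity along the body axis, were expressed for 15 of 39 members, against 58.1% of all protein-coding genes. HOXD10 was the highest at 26.1, 24.7 and 28.3 TPM, followed by HOXA11 (10.8 ± 1.76 TPM), HOXC13 (10.7 ± 2.06 TPM), HOXD9 (10.1 ± 2.65 TPM), HOXA10 (8.69 ± 1.16 TPM), HOXD11 (8.22 ± 1.32 TPM) and HOXC10 (7.79 ± 1.41 TPM). Each of the 6 genes after HOXD10 overlapped its neighbour in this order, and HOXA11, HOXA10 and HOXD11 share 30%, 23% and 28.3% of their windows with other genes. No gene of the HOXB cluster was expressed, and its highest member, HOXB9, stood at 0.569 ± 0.283 TPM. HOXD1, HOXD3 and HOXD4, at the other end of the HOXD cluster from HOXD10, stood at 0 to 0.0623 TPM on average, and all 3 share most of their exon bases with overlapping genes. Of 32 craniofacial patterning genes 17 were expressed, a share close to that of all protein-coding genes. They were led by IRX2 (70.5 ± 2.99 TPM), IRX4 (45.9 ± 2.0 TPM) and PITX1 (41.2 ± 4.66 TPM). PITX1 acts in the hindlimb and the oral region. BARX1, LHX8, EYA1 and PAX3 had no count.

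**Figure D4:**
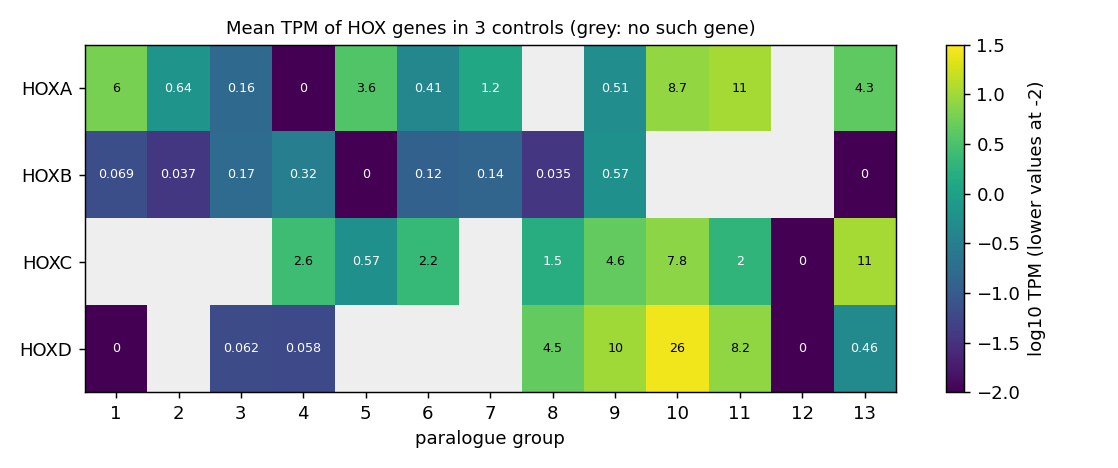
Mean TPM of the 39 HOX genes in the 3 controls, arranged by cluster (rows) and paralogue group (columns), coloured on a log10 scale. The 7 brightest cells lie in groups 9 to 13 of HOXA, HOXC and HOXD, with HOXD10 at 26 TPM, and the HOXB row stays below 1 TPM.

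Long noncoding RNA genes held 1.05 ± 0.0684% of counts, and 667 of 13310 were expressed. Those with most counts were MALAT1 (3513, 2473 and 3441 CPM), MIR205HG (465, 445 and 555 CPM), NEAT1 (418, 348 and 302 CPM), NORAD (329, 318 and 333 CPM) and SNHG1 (239.7, 302 and 304 CPM). MIR205HG is the host gene of miR-205, a microRNA of squamous epithelium. Per exon length NEAT1, a long transcript, stood at 53.8 ± 9.8 TPM, below SNHG1 (257 ± 28.8 TPM) and NORAD (209.9 ± 7.97 TPM), with MALAT1 at 1224 ± 244 TPM and MIR205HG at 477 ± 56.5 TPM. MALAT1 and NEAT1 stay in the nucleus, and MALAT1 was lowest in control 2.

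The 3 libraries were close to one another. Pearson correlations of log2 CPM over the 12744 expressed genes of all types were 0.990 to 0.992, as a description across genes. Over 12272 genes with 20 or more counts, chi-square divided by its degrees of freedom was 10.2 to 25.4 between pairs of libraries, where counting noise alone gives about 1. The libraries thus differed by more than counting noise, which does not show whether they came from separate cultures. Among 9325 genes of 10 CPM or more, the median SD between libraries was 0.10 on the log2 scale, and 101 genes exceeded 0.5. Control 2 was the lowest library for 65 of these and control 1 the highest for 59. The 10 widest were KRT6B, IFI6, DSG1, IFI27, FN1, KRT16, SPRR1B, MMP1, NR4A1 and KRT8. DSG1 had 25.3, 2.8 and 2.48 CPM and NR4A1, an immediate early gene, 26.9, 21.4 and 5.72 CPM, so that control 1 was high for the one and control 3 low for the other. MMP1 was 35.1, 6.21 and 15.2 CPM. Without control 1 the mean of DSG1 came to 2.64 CPM in place of 10.2, that of KRT6B to 15.4 CPM in place of 42.0 and that of IFI27 to 150.2 CPM in place of 267. Without control 3 the mean of FN1 came to 9.82 CPM in place of 25.4. Passage differs between these libraries and each passage has 1 control, so passage and library cannot be told apart.

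Some families with narrow expression were mostly without a count, against 20.0% of all protein-coding genes. They hold only a minor part of the 3961 protein-coding genes without a count. Of 380 olfactory receptor genes 355 had no count and none was expressed, and of 94 keratin-associated protein genes, which encode hair shaft proteins, 90 had no count. Cancer testis antigens, which some carcinomas reactivate, were silent for 31 of 36 genes, and only MAGED1 and MAGED2, which many tissues express, passed the threshold. For 15 of those 31 genes, such as MAGEA3 and CTAG1B, over 20% of the transcript windows recur in other genes, so reads that fit several copies may have been dropped. The other 16, including MAGEA4, MAGEC1 and PRAME, exceeded neither share. Zinc finger genes of the ZNF family were at the other end, with 397 of 513 expressed at a median of 7.37 TPM.

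Some silent genes lay side by side. Counting neighbouring protein-coding genes along each chromosome, 33 runs of 10 or more genes without a count held 571 of the 3900 silent genes on autosomes and the X chromosome. The longest run, from OR4C13 to APLNR, spanned 54 genes on chromosome 11 between positions 49952391 and 57237314 (GRCh38), of which 50 were olfactory receptor genes. The next had 34 genes on chromosome 1, of which 32 were olfactory receptor genes, and the third 28 genes on chromosome 8, of which 18 were defensin genes. Several of the third run's genes are near-identical copies whose reads may have been dropped.

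Levels were then set beside promoter sequence. Of the 19791 protein-coding genes, 15377 had an entry among RefSeq promoters (GRCh38.p14, 250 bases before to 50 after the start, first listed start). CG dinucleotides, the target of DNA methylation, are rare in the genome except in CpG islands, which mark many widely expressed genes. Promoters of the 9516 expressed genes held a median of 27 CG dinucleotides, those of the 3139 genes in between 11, and those of the 2722 genes without a count 6. At least 15 CG were found in 84.2%, 44.5% and 30.4% of these classes against 66.6% of the 15377 and 48.8% of all 27305 promoters of the table, noncoding genes included. The sequence TATAAA, searched on both strands, was found in 5.44% of expressed, 12.9% of intermediate and 19.8% of silent promoters, against 9.51% of the 15377 and 12.0% of the table. Promoters of expressed histone genes were unlike those of other expressed genes on both counts, with a median of 10.5 CG and TATAAA in 65.4% of 52. Genes share families and neighbourhoods, so these figures are descriptions.

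The 4 promoters printed next were picked after their levels were seen, to show the range from the abundant to the silent. Each is printed 5′ to 3′ on the gene's strand with every CG in capitals. KRT5 and HIST1H1C (now H1-2) were abundant, and MGMT and OR4C13 had no count. The KRT5 promoter spans chr12:52520345-52520644 (minus strand), HIST1H1C chr6:26056421-26056720 (minus strand), MGMT chr10:129466991-129467290 (plus strand) and OR4C13 chr11:49952141-49952440 (plus strand).
KRT5: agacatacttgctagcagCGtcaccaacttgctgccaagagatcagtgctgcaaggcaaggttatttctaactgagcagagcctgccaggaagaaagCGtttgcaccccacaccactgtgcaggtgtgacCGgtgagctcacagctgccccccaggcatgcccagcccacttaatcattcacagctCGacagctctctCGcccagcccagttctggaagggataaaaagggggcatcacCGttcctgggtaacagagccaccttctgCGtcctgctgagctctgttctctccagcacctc
HIST1H1C: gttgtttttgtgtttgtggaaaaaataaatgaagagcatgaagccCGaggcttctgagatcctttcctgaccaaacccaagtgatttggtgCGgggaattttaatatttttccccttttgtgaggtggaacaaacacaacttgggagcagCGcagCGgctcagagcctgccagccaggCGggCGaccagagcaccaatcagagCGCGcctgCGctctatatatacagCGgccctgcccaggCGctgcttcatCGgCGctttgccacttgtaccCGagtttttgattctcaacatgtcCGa
MGMT: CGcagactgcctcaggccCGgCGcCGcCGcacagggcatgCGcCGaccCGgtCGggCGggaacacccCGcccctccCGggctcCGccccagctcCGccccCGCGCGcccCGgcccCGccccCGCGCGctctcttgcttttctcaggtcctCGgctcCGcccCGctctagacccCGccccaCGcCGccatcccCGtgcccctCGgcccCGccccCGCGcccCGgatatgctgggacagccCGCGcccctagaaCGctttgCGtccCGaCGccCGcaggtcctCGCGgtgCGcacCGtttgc
OR4C13: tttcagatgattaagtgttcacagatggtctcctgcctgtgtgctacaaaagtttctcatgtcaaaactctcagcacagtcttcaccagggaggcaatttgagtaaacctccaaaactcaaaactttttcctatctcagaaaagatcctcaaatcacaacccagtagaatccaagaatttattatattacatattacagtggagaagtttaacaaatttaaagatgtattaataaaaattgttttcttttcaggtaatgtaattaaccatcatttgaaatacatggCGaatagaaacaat

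The 4 promoters held 7, 15, 45 and 1 CG dinucleotides in the order printed. KRT5, at a mean of 5438 TPM, thus had fewer CG than most expressed genes, and none of the 4 holds TATAAA. MGMT was 1 of 33 listed genes without a count that had 15 or more CG, among them AQP5 (49 CG), a water channel of salivary glands, HEY2 (43), the Wnt ligand gene WNT2 (43), the kinase genes FLT3 (34) and NTRK3 (30), and WIF1 (29). Of all silent genes with a promoter entry, 827 were of this kind. Some of these zeros may come from counting. MAGEA3, XAGE1A and HOXD1 share 56.5%, 100% and 53.8% of their windows with other genes. The 827 also include entries that join neighbouring genes, such as ARL2-SNX15 (35 CG), while ARL2 itself was expressed. DNA methylation was not measured.

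**Figure D5:**
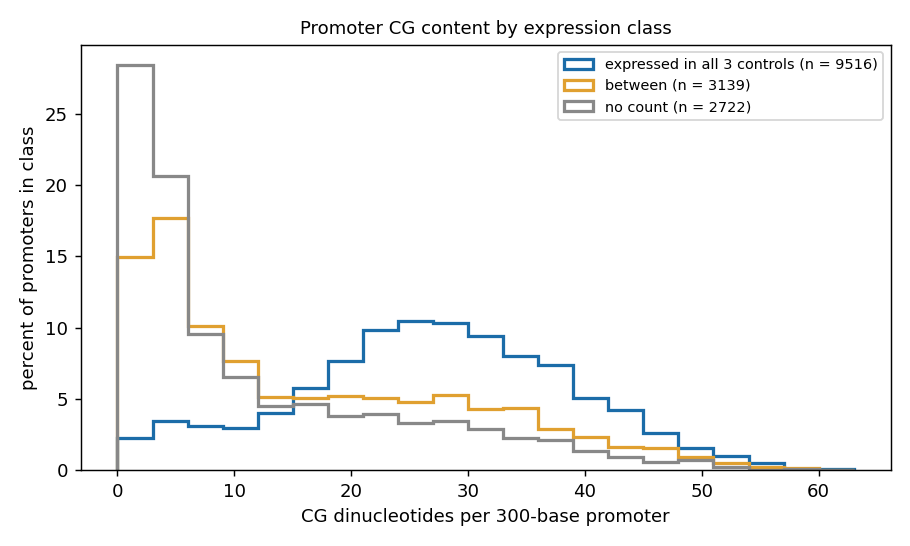
Distribution of CG dinucleotides per promoter of 300 bases (x axis) as percent of promoters in each class (y axis), for genes expressed in all 3 controls, genes in between and genes without a count. The expressed class is centred on a median of 27 CG, and the class without a count on 6 with a tail beyond 15.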

How the data were processed

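The values used are counts of reads per gene that the authors deposited for each library, not normalized, on genome build hg38, per the labels. A column kit for RNA and the NEBNext Ultra RNA kit for libraries were used, per the labels' protocols. Tools named, per the submitters' processing notes, were STAR 2.5.2a, featureCounts 1.5.0-p1, FastQC 0.11.5 and bcl2fastq 2.17.1.14. The read length, annotation release, strand setting and handling of multiply aligned reads are each not given in the sources used. Overlapping genes, antisense partners and near-identical copies may therefore be counted wrongly.

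Each file listed 58233 Ensembl identifiers, of which 57895 were found in GENCODE release 29 (GRCh38), the source of symbols, gene types, coordinates and exon lengths. The other 338 held at most 0.0170% of counts per library and stayed in the totals. CPM used the total of all gene rows. TPM used the union of a gene's exons and was scaled to 1000000 over all genes with a length. Sharing was checked as exon bases overlapped by other genes and as windows of 50 bases, every 25 bases of the longest transcript, found in other genes' transcripts, with over 20% or over 50% of exon bases counted as shared. The window length was an assumption.

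No groups were compared and no significance test was run. The computation of levels and spread was checked on simulated data. The 44 gene lists and the other choices were made with earlier results of these data known. The rule for named genes took the 25 highest TPM outside the mitochondrial chromosome, the mitochondrial protein-coding genes as a group, members of the lists (all of them for short lineage and oncogene lists, otherwise the highest 6 and those not expressed), the 5 long noncoding RNA genes with most CPM, the 10 widest spreads of log2(CPM + 0.5) among genes of 10 CPM or more and the 3 longest runs of silent neighbours. Not every gene of these lists is printed, and DKK1 was added after its value was seen. Alternatives were TMM factors from edgeR 4.0.16, size factors from DESeq2 1.42.0 (R 4.3.3), other thresholds, the longest transcript as length and omission of each library. Tables were made with Python 3.11.15, pandas 2.3.3 and numpy 2.4.6. Some listed genes are not reported here. The 6 treated libraries were not analysed here.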

Additional observations from a re-analysis of the deposited data

How the results depend on the processing

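The number of expressed genes of all types was 12744 and ran from 12744 to 14561 under other thresholds and scalings, with 14151 at 0.5 CPM, 14561 at 1 TPM, 13697 at 10 counts and 12785 with TMM or DESeq2 factors. Without 1 control library it ran from 12917 to 12960. Genes with no count numbered 27483 over all identifiers and 3961 over protein-coding genes, an alternative chosen after seeing the data, and 35523 when up to 3 counts were allowed. Without 1 library there were 29070 to 29447. The share of counts in the 100 most abundant genes ran from 16.6% to 17.3% and that on the mitochondrial chromosome from 0.123% to 0.144% without 1 library. TMM and DESeq2 factors moved none of 918 genes' mean CPM by more than 1.5 times. Without control 1, 2 or 3, the mean CPM fell by over 1.5 times for 49, 30 and 48 of them, of which 19, 3 and 4 had 1 CPM or more. Among genes named above, leaving out control 1 moved IFI6 from 73.4 to 39.9, KRT1 from 1.33 to 0.73, KRT13 from 1.51 to 0.682, KRT16 from 48.6 to 20.8, KRT6C from 3.26 to 1.12, MMP1 from 18.8 to 10.7, S100A9 from 4.07 to 1.34, SPRR1A from 1.16 to 0.47, SPRR1B from 14.8 to 6.52 and ZNF750 from 3.05 to 1.98 CPM, and leaving out control 2 moved CCND2 from 13.3 to 8.86 and ELF3 from 1.2 to 0.686 CPM, beside those given with the spread. Taking the longest transcript as length moved mean TPM by more than 1.5 times for 75 of 918 genes, and scaling TPM over protein-coding genes only, also chosen after seeing the data, raised 767 of the 888 genes that have such a value by 1.22 to 1.23 times, the other 121 being at 0. No paired analysis was possible because the result comes from no test and only 1 group was described. Depth limits genes near 0, where 1 count is 0.0560 to 0.0753 CPM.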

Other observations

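Gene groups outside the lineage and oncogene lists showed uneven family members. The hyaluronan receptor CD44 had 1202, 1109.7 and 1213 TPM, whereas the stem cell antigen PROM1 (CD133) was at 0.0169 ± 0.0293 TPM, and the embryonic factors NANOG, LIN28A and LIN28B had no count. Among aldehyde dehydrogenases ALDH1A3 had 257, 308 and 213 TPM and ALDH1A1, the gene often used to mark tumour stem cells, 0.073 ± 0.0766 TPM. F3, tissue factor, the starter of blood clotting, reached 2169, 1522 and 2141 TPM. LGALS1, galectin 1, had 988, 1963 and 1181 TPM and was highest in control 2.

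Of 29 genes of xenobiotic metabolism and redox defence 26 were expressed, against 58.1% of protein-coding genes. CYP1A1 (36.9, 31.5 and 18.9 TPM) and CYP1B1 (44.3, 29.2 and 21.2 TPM), targets of the aryl hydrocarbon receptor, were found with the receptor AHR (35.2 ± 1.19 TPM) and its repressor AHRR (10.8 ± 1.51 TPM). NQO1 (391, 668 and 549.7 TPM), GCLM (48, 76.6 and 57.6 TPM), TXNRD1 (104, 152 and 124 TPM) and FTL (1433, 2697 and 2049.7 TPM), targets of NRF2 named after their values were seen, were highest in control 2 and lowest in control 1. GSTP1, the highest gene of the list (4443, 3829.9 and 3892 TPM), HMOX1 (3.62, 2.28 and 2.46 TPM) and SRXN1 (2.9, 1.75 and 2.0 TPM), also NRF2 targets, were highest in control 1 and lowest in control 2. Of 16 listed APOBEC3 and nucleic acid sensing genes 10 were expressed, a share close to 58.1%, with a median of 1.25 TPM. Among cytosolic sensors of foreign nucleic acid, CGAS had 90.2, 98.1 and 98.7 TPM, beside DDX58 (RIG-I) and IFIH1 given above. TMEM173 (STING) had 20.2, 15.7 and 19.4 TPM. APOBEC3B, a DNA-editing deaminase, had 3.1, 5.58 and 8.4 TPM and its near copy APOBEC3A 0.272 ± 0.0515 TPM. Of the APOBEC3B transcript windows 40.3% recur in other genes. No explanation was tested for any of these levels.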
